A study of Homo sapiens with 9 samples.

Results

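Proteases that act outside the cell or at its surface, together with the proteins that inhibit them, were described by 130 gene symbols among the 25886 of a raw count table. The genes were taken by name alone: 24 matrix metalloproteinases (MMP), 22 ADAM, 19 ADAMTS, 16 kallikreins (KLK), 10 transmembrane serine proteases (TMPRSS), 4 tissue inhibitors of metalloproteinases (TIMP) and 35 serpins. Of these, 75 had enough counts to be tested, 55 did not, and 11 of the 55 had no count in any library. A gene that passed the low-count filter through its higher group alone had to differ, and 12 of the 75 did not pass in the Control libraries by themselves. The cells were labelled HT29, an established human colorectal cancer line, and rRNA-depleted total RNA was sequenced in 3 libraries each of 3 genotypes labelled Control, DNMT1 knockdown and DNMT3B knockdown. The knockdown lines were made with lentiviruses, and all 3 groups, Control included, carry the label of puromycin selection, at 1 µg/ml for 3 passages in the protocol. What the Control virus carried and how many hairpins were used per gene is not given in the labels, so an effect of the enzyme's loss and one of a hairpin cannot be told apart. Nothing in the labels says that the 3 libraries of a group came from separate cultures, so p-values cover only how far these libraries vary among themselves, possibly for technical reasons. The series was designed to read the transcriptome after DNMT1 or DNMT3B had been lowered, as proteasome inhibitors lower them.

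DNMT1 maintains DNA methylation through replication, and DNMT3B is a de novo methyltransferase; both act on the cytosine of CG pairs (CpG). The proteases form 2 chemical classes. MMPs, ADAMs and ADAMTSs are zinc metalloproteinases: MMPs cut matrix proteins and other secreted substrates, ADAMs cut ("shed") the outer parts of membrane proteins such as growth factor precursors, and ADAMTSs process or cut matrix proteins. Kallikreins and TMPRSSs are trypsin-like or chymotrypsin-like serine proteases, secreted or anchored in the membrane. TIMPs block metalloproteinases. Most serpins trap serine proteases in an irreversible complex, while some of them, such as the collagen chaperone SERPINH1, inhibit nothing. In the gut, MMP7 (matrilysin) is made by epithelial cells, whereas most other secreted MMPs come from stromal cells and leukocytes.

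Total counts were 18.8 to 33.7 M (1e+06) per library, and a count of 0 allowed at most 0.0895 to 0.162 counts per 1e+06 counts (CPM). CPM here is scaled by the TMM method, and the limits and counting intervals given below cover counting error only. The targeted genes followed their labels. DNMT1 stood at 448, 468 and 457 CPM in Control and at 248, 249.7 and 257 in its own knockdown, a log2 fold change of -0.86 ± 0.033 (SE; adjusted p = 2.83e-20, edgeR quasi-likelihood test). DNMT3B stood at 60.9, 60.4 and 62.6 CPM in Control and at 32.8, 27.9 and 30.8 in its own knockdown (-1 ± 0.047, adjusted p = 1.49e-17). A two-sided exact permutation test on the CPM values gave p = 0.1 for each, the smallest that 3 against 3 libraries allow. In DNMT3B knockdown DNMT1 was called slightly higher than in Control (0.09 ± 0.032, adjusted p = 0.0171, edgeR). DNMT3B was not called in DNMT1 knockdown (0.07 ± 0.043, 0.22). Of 11 markers of colon epithelium, 6 (EPCAM, KRT8, KRT18, KRT19, CDH1 and CDX2) exceeded 1 CPM in every library, VIL1 spanned 0.613 to 1.45 CPM and KRT20 0.931 to 2.26 CPM, and CDX1, GPA33 and LGALS4 stayed under 1 CPM in every library. Of the markers of other cells, 6 of 8 stromal, 6 of 8 leukocyte and 2 of 6 endothelial ones stayed under 1 CPM throughout. COL1A2 and DCN stood at 0. The endothelial marker CLDN5 exceeded 1 CPM in every library, with 1.42 to 2.81 CPM. The summed leukocyte markers, mostly CD68, spanned 21.7 to 22.3 CPM in Control, 22.0 to 23.0 with DNMT1 lowered, and 34.6 to 39.9 with DNMT3B lowered. The summed stromal markers, mostly COL1A1, spanned 20.7 to 25.6, 23.6 to 28.4 and 32.5 to 33.8 CPM, and the 6 endothelial markers 4.86 to 5.55, 4.09 to 5.24 and 5.82 to 6.79 CPM. The part of these markers in the results below was not tested. In bulk RNA, fewer cells making a transcript and less transcript per cell cannot be told apart.

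The 130 genes together took 0.166 ± 0.000906% of all counts in Control (SD, n = 3), 0.191 ± 0.00101% in DNMT1 knockdown and 0.154 ± 0.00279% in DNMT3B knockdown. The sum was thus highest in DNMT1 knockdown and lowest in DNMT3B knockdown, with no overlap between groups. In summed CPM the difference between DNMT1 knockdown and Control was 241, of which the single gene ADAM19 gave 148; for DNMT3B knockdown it was -124. Compared per length of exon, so that genes can be set beside each other, TIMP1 led in Control at 68.5 CPM per kb. KLK6 followed at 34.1, ADAM9 at 31.7, MMP15 at 24.9 and SERPINH1 at 23.9 CPM per kb. The next places were held by ADAM15 (15.4), SERPINB1 (14.1), TIMP2 (13.8), SERPINB9 (10.6) and ADAM19 (10.2 CPM per kb). The top of the order therefore mixed 2 TIMPs, a kallikrein, 3 membrane-anchored sheddases, a membrane-type MMP and intracellular serpins. The classical secreted collagenases MMP1, MMP8 and MMP13 had 26 counts between them over all 9 libraries.

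**Figure D1:**
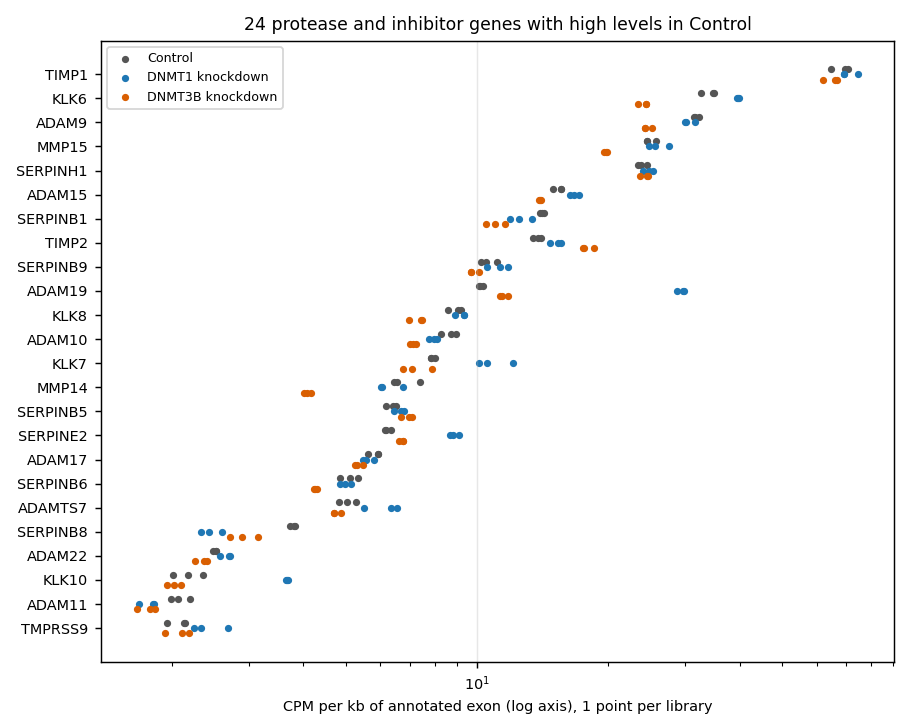
Level in CPM per kb of annotated exon (horizontal log axis) of 24 genes with high levels in Control, with 1 point per library and a colour per group. TIMP1 leads at 68.5 and KLK6 follows at 34.1 CPM per kb, and the DNMT1 knockdown points of ADAM19 (mean 29.4) lie apart from its Control points (mean 10.2).

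In DNMT1 knockdown against Control, 24 of the 75 tested genes rose and 8 fell at an adjusted p below 0.05, where 21% of all 16660 tested genes rose and 20.8% fell. As a share of the tested members that is 42.7% in either direction, beside 41.8% of all genes. In DNMT3B knockdown against Control, 14 rose and 17 fell, beside 23.1% and 24.6% of all genes; 41.3% of the members were called in either direction, beside 47.7% of all genes. In either direction the members' shares thus lay near or below those of all genes, while 32% of members rose in DNMT1 knockdown and 10.7% fell. Of the 75, 7 changed at least 2-fold in DNMT1 knockdown and 7 in DNMT3B knockdown, all of them upward (9.33% in each), where 1.95% and 2.53% of all genes did so in either direction. In each set 3 of the 7 (MMP20, MMP19 and MMP9 in DNMT1 knockdown; MMP20, MMP7 and MMP19 in DNMT3B knockdown) are among the 12 genes that did not pass the low-count filter in Control, so nothing is read from these shares. The libraries of the knockdown and of Control did not overlap for 33 members in DNMT1 knockdown and 39 in DNMT3B knockdown, as for 49.4% and 54.1% of all genes. The median log2 fold change of the members was 0.13 and 0.01, beside -0.00 and 0.00 over all tested genes. The direct comparison of the knockdowns had 30 genes higher in DNMT1 knockdown and 12 lower (56% of members, beside 45.2% of all genes, of which 24.3% were higher and 20.9% lower), and 44 members whose libraries did not overlap (52.2% of all genes). Counts for single families and lists below are a description of few genes, to be read beside these shares of all genes, and no family or list was tested against them. The comparisons with Control share the same 3 Control libraries, so their values are given side by side.

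**Figure D2:**
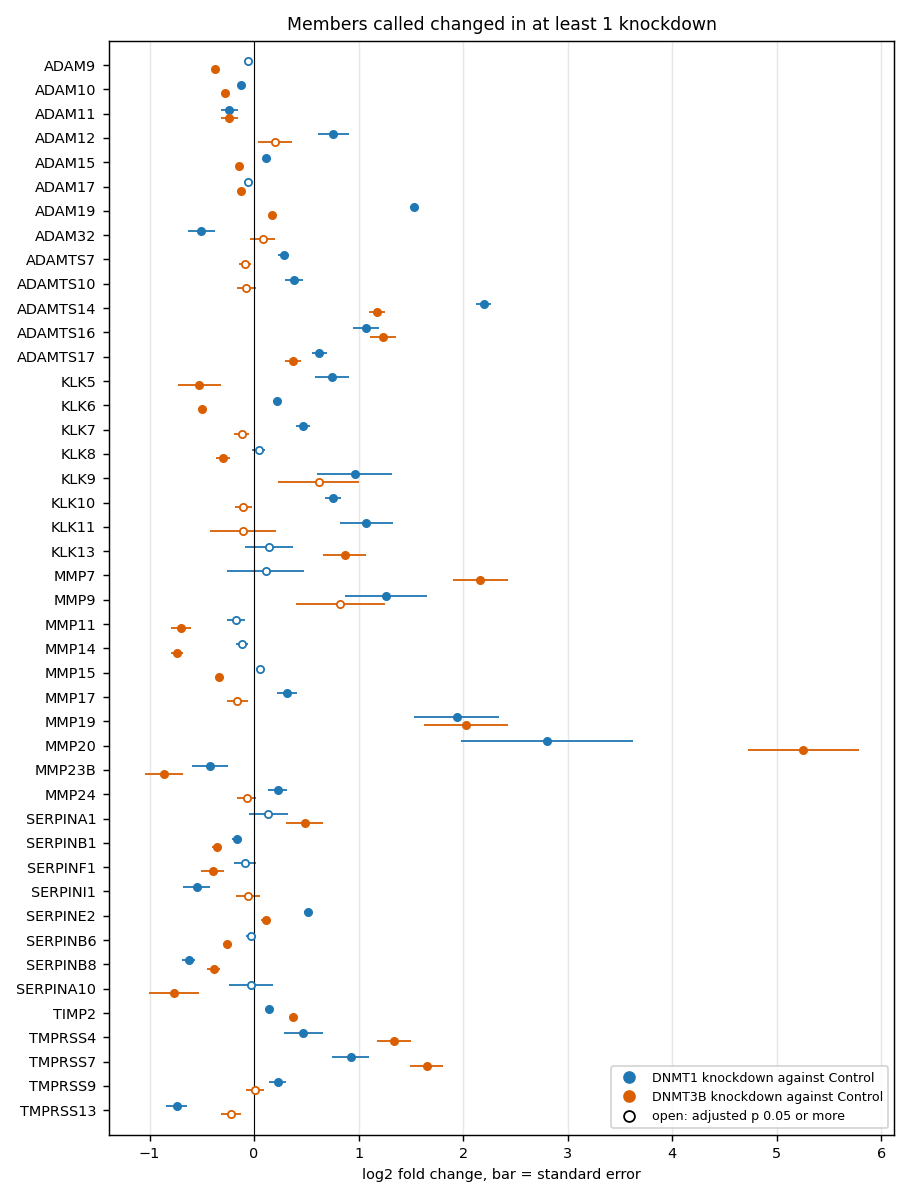
Log2 fold change (horizontal axis, bars are standard errors) of members called in at least 1 knockdown, with a colour per comparison and open points where adjusted p was 0.05 or more. The fitted values of MMP20 rest on 2 Control counts. The largest values belong to MMP20, MMP7, ADAMTS14, MMP19, TMPRSS7 and ADAM19, and all lie to the right of 0.

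Among the secreted MMPs, the largest differences were in MMP7 and MMP20 (enamelysin, best known from tooth enamel), and both were high in DNMT3B knockdown. MMP7 stood at 0.328, 0.447 and 0.321 CPM in Control, at 0.454, 0.298 and 0.416 in DNMT1 knockdown and at 1.31, 1.45 and 2.07 in DNMT3B knockdown. All 3 DNMT3B knockdown libraries lay above the 6 others, which overlapped. The rise in DNMT3B knockdown was 4.48-fold (2.16 ± 0.26, adjusted p = 3.31e-08), while DNMT1 knockdown gave 0.11 ± 0.37 (adjusted p = 0.833). MMP20 was close to undetected in Control, with 0.0298, 0.0372 and 0 CPM from 2 counts in all, and had 0.248, 0.0426 and 0.249 CPM (13 counts) in DNMT1 knockdown and 1.02, 1.13 and 0.919 CPM (70 counts) in DNMT3B knockdown. The ratio to Control, with its 95% exact counting interval, for DNMT1 knockdown was 8.29 (1.88 to 75.7), and for DNMT3B knockdown 46.4 (12.4 to 390.3). Both rises were called (adjusted p = 0.00634 and 9.52e-10). MMP20 passed the low-count filter (0.412 CPM in 3 libraries) only through its DNMT3B knockdown libraries. Its higher level there was thus in part fixed by the filter. MMP7 did not pass in Control alone, but it also reached the limit in Control library 2 and DNMT1 knockdown libraries 1 and 3. Its passing therefore did not depend on DNMT3B knockdown. The calls of both genes in DNMT3B knockdown were also made without the filter. The groups of MMP20 did not overlap, although DNMT1 knockdown library 2 stood only just above the Control libraries. In the direct comparison both genes were lower in DNMT1 knockdown, with log2 differences of -2.05 ± 0.27 for MMP7 and -2.45 ± 0.37 for MMP20 (adjusted p = 2.37e-07 and 2.13e-06). The stromal and leukocyte marker sums given above were also highest in the DNMT3B knockdown libraries, as were TIMP2 and TMPRSS7 below, and their part in these values was not tested.

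MMP7 and MMP20 are neighbours on chromosome 11, both on the minus strand, with 46.1 kb between them, at one end of a run of 9 MMP genes over 435.2 kb. The other 7 genes of the run (MMP27, MMP8, MMP10, MMP1, MMP3, MMP12 and MMP13) had 13 counts together in Control, 13 in DNMT1 knockdown and 16 in DNMT3B knockdown, and no group had more than 8 counts of any of them. The sequences below are shown because these 2 neighbours had the largest fitted changes in DNMT3B knockdown. Each is the 250 bases before the RefSeq transcription start on GRCh38.p14, minus strand, at chr11:102530748-102530997 for MMP7 and chr11:102625333-102625582 for MMP20, written 5′ to 3′ along the gene. Capitals mark TATAAA, the core of the TATA box, and TGANTCA, a loose form of the motif of the AP-1 factors, with N any base. The strict motif has C or G there, so the TGAATCA of MMP20 matches the loose form only. Each was searched on both strands, and the motifs do not overlap each other.
MMP7: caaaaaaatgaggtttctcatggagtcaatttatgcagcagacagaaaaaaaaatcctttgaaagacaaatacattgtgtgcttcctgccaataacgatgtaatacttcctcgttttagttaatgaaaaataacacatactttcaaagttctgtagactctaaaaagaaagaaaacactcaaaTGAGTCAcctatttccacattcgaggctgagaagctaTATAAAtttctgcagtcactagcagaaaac
MMP20: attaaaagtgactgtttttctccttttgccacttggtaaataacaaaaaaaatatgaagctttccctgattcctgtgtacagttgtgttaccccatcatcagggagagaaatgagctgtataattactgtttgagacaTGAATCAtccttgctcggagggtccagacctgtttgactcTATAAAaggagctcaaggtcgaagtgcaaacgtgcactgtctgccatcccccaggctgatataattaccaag
The TATAAA of MMP7 begins 30 bases before the start and its TGAGTCA 67 bases before. In MMP20 the TATAAA begins 72 bases and the TGAATCA 112 bases before the start. Among all 35116 RefSeq windows of this length, 10.72% hold TATAAA, 6.57% hold TGANTCA and 1.07% hold both; among the 110 windows of 85 matched members, 19, 14 and 8 do. The 8 include MMP10 of the same run, which had 3, 3 and 7 counts in Control, DNMT1 and DNMT3B knockdown, and SERPINB8, which fell in both knockdowns. The other 4 (SERPINB2, SERPINB7, SERPINI2 and TMPRSS15) were not tested. Both windows are poor in CpG, with 3 each, where 77.1% of all windows have at least as many. A match is a description of the letters, not of a bound site.

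MMP19, another secreted MMP, rose in both knockdowns from a Control level under the low-count limit, as MMP9 did in DNMT1 knockdown. Both genes passed the low-count filter only through knockdown libraries, so a higher level there was in part fixed by the filter. MMP19 had 0.149, 0.0745 and 0.193 CPM in Control (13 counts), 0.537, 0.469 and 0.665 in DNMT1 knockdown (40 counts) and 0.655, 0.377 and 0.689 in DNMT3B knockdown (41 counts), with no overlap of either knockdown with Control. The fold changes were 3.83 and 4.07 (log2 1.94 ± 0.41 and 2.02 ± 0.40, adjusted p = 0.00026 and 0.000105). Of its 4672 exon bases, 814 are shared with TMEM198B on the opposite strand, and whether the counting used strand is not given, so its value is uncertain. MMP9 (gelatinase B) had 0.149, 0.261 and 0.257 CPM in Control, 0.660, 0.298 and 0.623 in DNMT1 knockdown and 0.450, 0.215 and 0.460 in DNMT3B knockdown, and was called higher in DNMT1 knockdown (1.26 ± 0.39, adjusted p = 0.00972) and not in DNMT3B knockdown (0.82 ± 0.43, 0.112), with no called difference between the knockdowns (0.44 ± 0.37, 0.355). The rise was lost without Control library 1, without DNMT1 knockdown library 1 or 3, and with DESeq2 (adjusted p up to 0.0639), and MMP9 shares 430 of its 2336 exon bases with the antisense gene SLC12A5-AS1. Calls at means under 1 CPM in both groups compared numbered 4 in DNMT1 knockdown (MMP20, MMP19, MMP9 and KLK9) and 1 in DNMT3B knockdown (MMP19). MMP2, the other gelatinase, had 11, 7 and 15 counts in the 3 groups and was not tested.

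MMP14, the membrane-type MMP that activates the MMP2 precursor, fell in DNMT3B knockdown. Its level was 28.7, 29.2 and 33 CPM in Control, 27, 30.2 and 26.8 in DNMT1 knockdown and 18.5, 18.1 and 17.9 in DNMT3B knockdown. The DNMT3B knockdown libraries lay below all others, and the other 2 groups overlapped. The log2 fold change was -0.74 ± 0.062 in DNMT3B knockdown (adjusted p = 1.79e-11) and -0.11 ± 0.057 in DNMT1 knockdown (0.107); without DNMT1 knockdown library 2 the latter was called lower (0.0348). MMP15, the second membrane-type enzyme and the MMP highest per length, also fell in DNMT3B knockdown, from 110.1 ± 2.92 CPM in Control to 87.1 ± 0.648 (SD, n = 3; -0.34 ± 0.039, adjusted p = 1.38e-08), and stood at 115 ± 6.17 in DNMT1 knockdown (0.06 ± 0.038, 0.225). MMP17 and MMP24 rose in DNMT1 knockdown (0.31 ± 0.094, adjusted p = 0.00755; 0.23 ± 0.090, 0.0418) and were not called in DNMT3B knockdown (-0.16 ± 0.10 and -0.07 ± 0.095). MMP24 shares 799 of its 4414 exon bases with MMP24OS on the opposite strand, so its value is uncertain. Of the 5 tested membrane-anchored MMPs, 2 rose and 0 fell in DNMT1 knockdown, beside 21% and 20.8% of all genes. In DNMT3B knockdown 0 rose and 2 fell, beside 23.1% and 24.6%. In the direct comparison 4 were higher in DNMT1 knockdown, beside 24.3% of all genes, MMP25 being the uncalled one.

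MMP11 (stromelysin 3) fell in DNMT3B knockdown, with 7.66, 7.71 and 8.38 CPM in Control, 6.93, 6.86 and 7.27 in DNMT1 knockdown and 4.38, 5.44 and 4.9 in DNMT3B knockdown (-0.70 ± 0.096, adjusted p = 3.34e-07; -0.17 ± 0.088, 0.114 in DNMT1 knockdown). Its exons share 218 bases with CHCHD10. MMP23B fell in both knockdowns, from 2.06, 2.35 and 2.57 CPM in Control to 1.4, 2.22 and 1.58 and 1.47, 1.18 and 1.15 (-0.42 ± 0.17, adjusted p = 0.0453; -0.86 ± 0.19, 0.000258). In DNMT1 knockdown its libraries overlapped Control, and the call was lost with DESeq2 and without Control library 2 or 3 or DNMT1 knockdown library 1 or 3 (adjusted p up to 0.232). MMP23B has a near copy, the pseudogene MMP23A, 64.7 kb away, so its counts are uncertain as well. The other tested MMPs, MMP21, MMP25 and MMP28, were called in neither knockdown. MMP25 shares 1454 of its 4126 exon bases with MMP25-AS1 on the opposite strand, so its value is uncertain.

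One untested MMP is named here after its counts were seen. MMP16, a further membrane-type enzyme, had 3 counts in Control, 33 in DNMT1 knockdown and 8 in DNMT3B knockdown, too few to pass the low-count filter. The ratio to Control for DNMT1 knockdown was 14 (95% counting interval 4.40 to 71.5), and for DNMT3B knockdown 3.53 (0.848 to 20.7).

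ADAM19 (meltrin beta, a sheddase of neuregulin precursors) had the most precise of the large changes. It stood at 78.3, 79.4 and 78 CPM in Control, at 221, 229 and 229 in DNMT1 knockdown and at 90.9, 88 and 87.1 in DNMT3B knockdown. The 3 groups did not overlap, and the spread within each group was small beside the distance of DNMT1 knockdown from the other groups. DNMT1 knockdown was 2.88-fold above Control (1.53 ± 0.034, adjusted p = 1.69e-26), DNMT3B knockdown 1.13-fold (0.18 ± 0.036, 0.000172), and DNMT1 knockdown 2.55-fold above DNMT3B knockdown (1.35 ± 0.035, 3.54e-24). Over the 17 alternative analyses the log2 fold change in DNMT1 knockdown stayed between 1.52 and 1.55, and 62 of its 7704 exon bases are shared with CYFIP2 on the opposite strand. ADAM12 (meltrin alpha), a relative that also cuts growth factor precursors, rose in DNMT1 knockdown from 1.49, 1.9 and 1.86 CPM to 3.14, 2.64 and 3.03, with 2.25, 1.88 and 1.84 in DNMT3B knockdown (0.76 ± 0.15, adjusted p = 0.000133; 0.20 ± 0.17, 0.338).

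The other main sheddases moved less. ADAM9, the highest ADAM per length, fell in DNMT3B knockdown from 219 ± 3.35 to 169.9 ± 3.23 CPM (SD, n = 3; -0.37 ± 0.033, adjusted p = 9.87e-11) and stood at 211 ± 5.79 CPM in DNMT1 knockdown (-0.06 ± 0.033, 0.186). ADAM10, which cuts Notch receptors and E-cadherin, fell in both, from 139.5 ± 5.4 CPM to 128 ± 2.72 and 115 ± 1.8 (-0.12 ± 0.035, 0.00626; -0.27 ± 0.036, 1.5e-07). The DNMT1 knockdown call of ADAM10 was lost without Control library 1 (adjusted p = 0.0653). ADAM17, the TNF-converting enzyme, fell slightly in DNMT3B knockdown (-0.12 ± 0.041, adjusted p = 0.0123), a call lost without Control library 1 or 3 or DNMT3B knockdown library 2 or 3 (up to 0.0608), and gave -0.05 ± 0.040 in DNMT1 knockdown (0.296). ADAM17 shares 1323 of its 10750 exon bases with IAH1 on the opposite strand, so its value is uncertain. None of these shifts of ADAM9, ADAM10 and ADAM17 exceeded 1.29-fold.

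ADAM15 was called in opposite directions. Its level was 103, 98.4 and 103 CPM in Control, 107, 113 and 109.5 in DNMT1 knockdown and 92, 92.5 and 91.3 in DNMT3B knockdown, so that Control lay between the knockdowns with no overlap. The log2 fold changes were 0.12 ± 0.035 and -0.14 ± 0.036 (adjusted p = 0.00743 and 0.00163), and the first was lost without Control library 2 (0.0551). The direct difference was 0.26 ± 0.036 (adjusted p = 6.06e-07). ADAM15 shares 306 of its 6584 exon bases with DCST1 on the same strand. Among the ADAMs that lack protease function, ADAM11 fell in both knockdowns (-0.24 ± 0.079, adjusted p = 0.0159; -0.24 ± 0.080, 0.0143) and ADAM32 in DNMT1 knockdown (-0.50 ± 0.13, 0.00243; 0.08 ± 0.12, 0.612). Both ADAM11 calls were lost with DESeq2, without Control library 2, and without DNMT1 knockdown library 1 or DNMT3B knockdown library 2 in the respective comparison (up to 0.0792 and 0.064). In all, of 13 tested ADAMs 3 rose and 3 fell in DNMT1 knockdown, beside 21% and 20.8% of all genes. In DNMT3B knockdown 1 rose and 5 fell, beside 23.1% and 24.6%. In the direct comparison 7 were higher and 1 lower in DNMT1 than in DNMT3B knockdown, beside 24.3% and 20.9%.

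Of 10 tested ADAMTS genes, 5 rose and 0 fell in DNMT1 knockdown, where 21% of all genes rose and 20.8% fell. In DNMT3B knockdown 3 rose and 0 fell, where 23.1% of all genes rose and 24.6% fell. ADAMTS14, which removes the amino-terminal propeptide of fibrillar procollagens, had the family's largest rise in DNMT1 knockdown and came after ADAMTS16 in DNMT3B knockdown. It stood at 5.96, 7.26 and 6.68 CPM in Control, 28.8, 31.8 and 30.1 in DNMT1 knockdown and 15.4, 15.2 and 14.2 in DNMT3B knockdown. The 3 groups were separate, with DNMT3B knockdown between the other 2. The rise was 4.58-fold in DNMT1 knockdown (2.20 ± 0.070, adjusted p = 3.9e-22) and 2.26-fold in DNMT3B knockdown (1.18 ± 0.080, 1.35e-13), and DNMT1 knockdown was 2.03-fold above DNMT3B knockdown (1.02 ± 0.064, 2.18e-14). ADAMTS2, which has the same kind of activity, was called in neither (0.09 ± 0.15, 0.648; 0.16 ± 0.15, 0.383). ADAMTS3, the third such enzyme, was not tested.

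ADAMTS16 rose in both, from 2.15, 2.38 and 2.41 CPM in Control to 5.32, 4.48 and 4.74 in DNMT1 knockdown and 5.69, 5.44 and 5.17 in DNMT3B knockdown, with both knockdowns above all Control libraries and overlapping each other. Its log2 fold changes were 1.07 ± 0.12 and 1.23 ± 0.12 (adjusted p = 1.56e-08 and 4.65e-10), and the direct difference was -0.16 ± 0.11 (adjusted p = 0.231). ADAMTS17, which is needed for normal elastic microfibrils, rose from 9.29 ± 0.180 CPM to 14.3 ± 0.684 and 12 ± 0.196 (SD, n = 3; 0.62 ± 0.070, 1.04e-08; 0.37 ± 0.073, 8.02e-05). ADAMTS7, which cuts cartilage oligomeric matrix protein, and ADAMTS10, another microfibril-associated member, rose in DNMT1 knockdown (0.28 ± 0.052, 5.17e-05; 0.38 ± 0.084, 0.000421) and were not called in DNMT3B knockdown (-0.09 ± 0.054 and -0.08 ± 0.090). The proteoglycan-cleaving ADAMTSs were scarce, with 2 of 7 tested and 0 called in either knockdown. ADAMTS13, the protease of von Willebrand factor, was called in neither (0.13 ± 0.11, 0.374; -0.11 ± 0.11, 0.449).

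The upstream windows of ADAM19 and ADAMTS14, which had the largest called rises in DNMT1 knockdown among metalloproteinases with a mean of at least 1 CPM in either group, are shown with every CpG in capitals, since CpG is the substrate of both knocked-down enzymes. They are the 250 bases before the RefSeq start on GRCh38.p14, at chr5:157575776-157576025 on the minus strand for ADAM19 and chr10:70672256-70672505 on the plus strand for ADAMTS14, written 5′ to 3′ along the gene.
ADAM19: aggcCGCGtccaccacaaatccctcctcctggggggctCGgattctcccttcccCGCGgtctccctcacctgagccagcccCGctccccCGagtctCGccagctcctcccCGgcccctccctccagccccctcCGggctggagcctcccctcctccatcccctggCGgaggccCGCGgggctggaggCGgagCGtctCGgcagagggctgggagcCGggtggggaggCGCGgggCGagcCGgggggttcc
ADAMTS14: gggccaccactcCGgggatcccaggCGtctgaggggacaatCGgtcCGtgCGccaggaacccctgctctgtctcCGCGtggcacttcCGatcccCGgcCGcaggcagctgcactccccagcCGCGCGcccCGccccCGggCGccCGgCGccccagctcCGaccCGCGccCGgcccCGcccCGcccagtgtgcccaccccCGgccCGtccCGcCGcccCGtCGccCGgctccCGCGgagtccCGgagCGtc
The ADAM19 window holds 21 CpG, a number reached by 30.2% of all windows, and the ADAMTS14 window holds 35, a number reached by 5.8% of all windows, whose median is 11. Below 1 CPM, MMP20 and MMP19 had larger fitted rises than ADAM19, and the MMP20 window shown above holds 3 CpG. Methylation itself was not measured in these libraries.

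**Figure D3:**
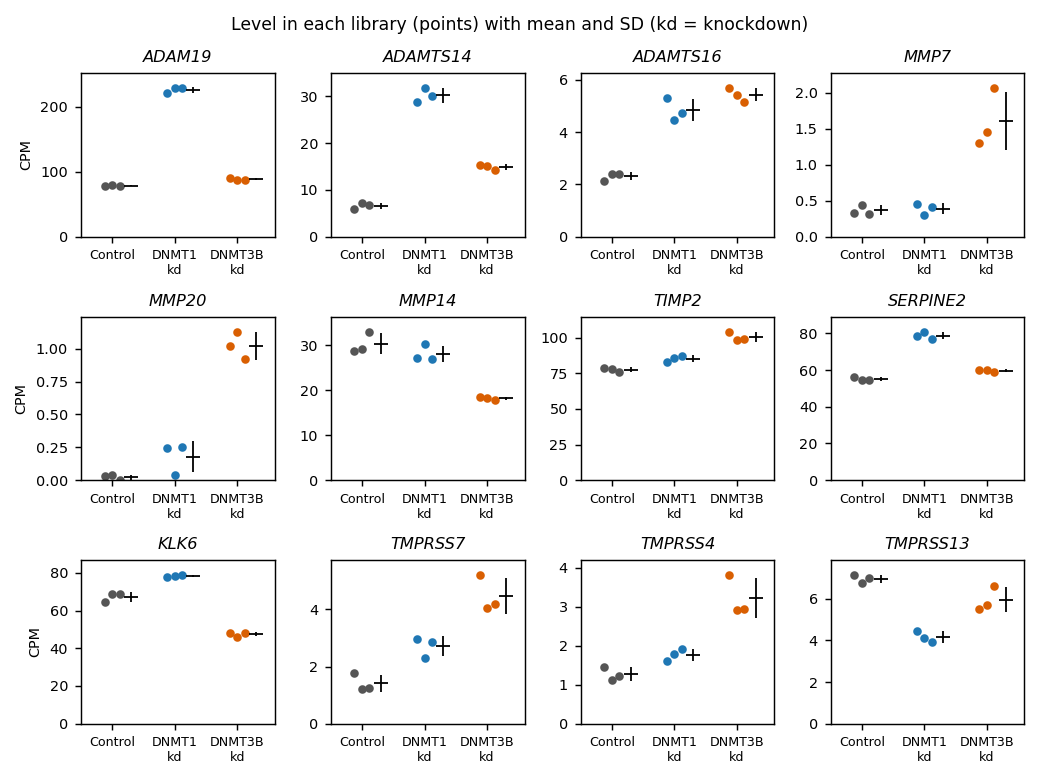
CPM in each library (points) with the group mean and SD for 12 members; each panel has its own vertical axis from 0. ADAM19 and ADAMTS14 are highest in DNMT1 knockdown (means 226 and 30.2 CPM), MMP7 and MMP20 are highest in DNMT3B knockdown (means 1.61 and 1.02 CPM).

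The tissue kallikreins form 1 run of 15 genes over 265.1 kb of chromosome 19, of which 11 were tested. In DNMT1 knockdown 6 of the 11 rose and 0 fell, beside 21% and 20.8% of all genes, and 1 of the 6, KLK9, lay under the low-count limit in Control. In DNMT3B knockdown 1 rose and 3 fell, beside 23.1% and 24.6% of all genes. KLK6, a trypsin-like enzyme and the kallikrein highest per length, was called in opposite directions, with 64.4, 68.7 and 68.9 CPM in Control, 77.8, 78.3 and 78.8 in DNMT1 knockdown and 48.2, 46.2 and 48.1 in DNMT3B knockdown. The 3 groups were apart, with Control in the middle. The log2 fold changes were 0.22 ± 0.039 (adjusted p = 2.7e-05) and -0.50 ± 0.041 (1.23e-11), and the direct difference was 0.72 ± 0.041 (2.66e-15). KLK5, which starts the protease cascade of skin shedding, had the same order at a lower level, with 1.61, 1.34 and 1.64 CPM in Control, 2.43, 2.56 and 2.74 in DNMT1 knockdown and 1.15, 0.700 and 1.26 in DNMT3B knockdown. Its changes were 0.74 ± 0.16 (adjusted p = 0.00042) and -0.52 ± 0.20 (0.0337), with a direct difference of 1.27 ± 0.19 (1.75e-06). The fall of KLK5 in DNMT3B knockdown was lost with DESeq2 and without Control library 1 or 3 or DNMT3B knockdown library 1 or 2 (adjusted p up to 0.186).

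KLK7, a chymotrypsin-like enzyme of the same cascade, rose in DNMT1 knockdown, with 19.1, 19.5 and 19.1 CPM in Control, 25.7, 24.6 and 29.4 in DNMT1 knockdown and 19.2, 16.4 and 17.2 in DNMT3B knockdown (0.47 ± 0.063, adjusted p = 3.8e-07; -0.12 ± 0.068, 0.148). Without DNMT3B knockdown library 1 it was called lower in DNMT3B knockdown (0.0424). KLK10 rose in DNMT1 knockdown from 7.72, 8.38 and 9.05 CPM to 14.2, 14.1 and 14 and stood at 8.06, 7.49 and 7.78 in DNMT3B knockdown (0.75 ± 0.074, 6.73e-10; -0.10 ± 0.084, 0.325). The DNMT1 knockdown libraries of both genes lay above all 6 others. KLK11 and KLK9 also rose in DNMT1 knockdown at levels near 1 CPM or below (1.07 ± 0.26, 0.001; 0.96 ± 0.36, 0.0308), and KLK8 fell in DNMT3B knockdown (-0.30 ± 0.064, 0.000279; 0.04 ± 0.061, 0.611 in DNMT1 knockdown). KLK13 went the other way: it had 1.1, 0.670 and 0.867 CPM in Control, 0.867, 1.07 and 1.04 in DNMT1 knockdown and 1.55, 1.94 and 1.49 in DNMT3B knockdown, where it rose (0.87 ± 0.21, 0.000861; 0.14 ± 0.23, 0.656).

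By position, a stretch chosen after its values were seen runs from KLK5 to KLK11, 7 adjacent genes on the minus strand. All 7 had a positive direct difference between DNMT1 and DNMT3B knockdown, from 0.34 to 1.27 on the log2 scale, and 6 of them were called. Its nearest tested neighbours had negative values, KLK4 at -0.41 ± 0.35 (adjusted p = 0.361) and KLK13 at -0.72 ± 0.22 (0.00651). KLK4 lies 32.6 kb from KLK5, whereas gaps inside the stretch run from 0.4 to 11.9 kb. KLK2 and KLK3 (prostate-specific antigen) had no count in any library. The plasma kallikrein gene KLKB1, on another chromosome and made mainly in liver, was called in neither knockdown.

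**Figure D4:**
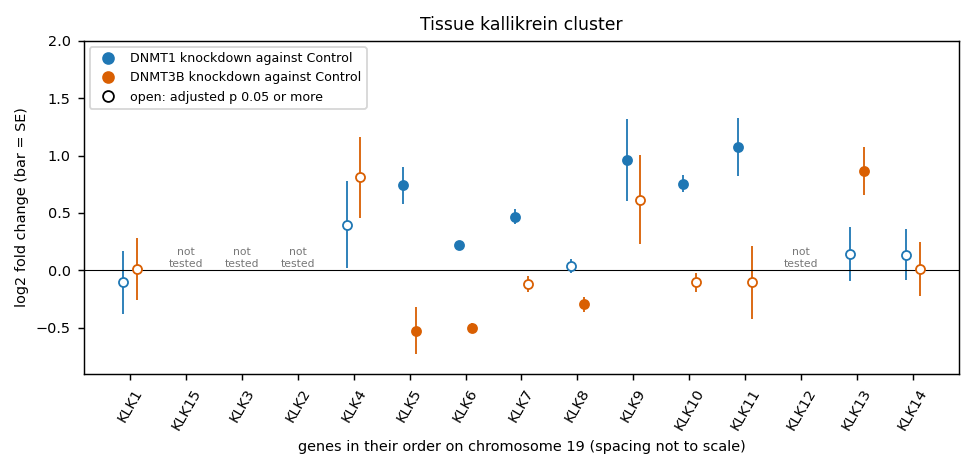
Log2 fold change (vertical axis, bars are standard errors) of the tested tissue kallikreins in their order along chromosome 19 (spacing not to scale), with a colour per comparison, open points where adjusted p was 0.05 or more, and untested genes marked. From KLK5 to KLK11 the values of DNMT1 knockdown lie above those of DNMT3B knockdown, and at KLK4 and KLK13 they lie below.

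Of 6 tested TMPRSS genes, 3 rose and 1 fell in DNMT1 knockdown, beside 21% and 20.8% of all genes. In DNMT3B knockdown 2 rose and 0 fell, beside 23.1% and 24.6%. TMPRSS7 (matriptase-3) rose in both, from 1.76, 1.23 and 1.25 CPM in Control to 2.97, 2.3 and 2.87 in DNMT1 knockdown and 5.2, 4.04 and 4.18 in DNMT3B knockdown. The 3 groups did not overlap, and the order put DNMT3B knockdown highest. The fold changes were 1.9 (0.92 ± 0.17, adjusted p = 6.72e-05) and 3.14 (1.65 ± 0.16, 2.42e-10), with a direct difference of -0.73 ± 0.14 (9.77e-05). TMPRSS4, an epithelial surface protease, showed the same order at 1.46, 1.12 and 1.22, 1.61, 1.79 and 1.91 and 3.81, 2.91 and 2.95 CPM (0.47 ± 0.19, 0.0424; 1.34 ± 0.16, 3.82e-08). Its DNMT1 knockdown call was lost with DESeq2 and without Control library 2 or 3 or DNMT1 knockdown library 2 or 3 (adjusted p up to 0.143).

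TMPRSS13, which lies 147.6 kb from TMPRSS4 on chromosome 11, was lower in DNMT1 knockdown, with 7.13, 6.74 and 7 CPM in Control, 4.46, 4.13 and 3.91 in DNMT1 knockdown and 5.52, 5.71 and 6.63 in DNMT3B knockdown. The fall was -0.74 ± 0.10 (adjusted p = 5.1e-07); DNMT3B knockdown gave -0.22 ± 0.094 (0.0556), which was called without DNMT3B knockdown library 3 (0.0203). Of these neighbours, 1 thus rose and 1 fell in the same libraries. TMPRSS9 (polyserase-1) rose slightly in DNMT1 knockdown (0.22 ± 0.082, 0.0264; 0.01 ± 0.085, 0.937), and 313 of its 4328 exon bases are shared with TIMM13. TMPRSS2, which is expressed in prostate and normal gut epithelium, had no count in any of the 9 libraries.

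Among the inhibitors of metalloproteinases, all 4 TIMPs were tested and TIMP2 alone was called against Control. TIMP2, which inhibits MMPs and also serves MMP14 as the bridge that holds the MMP2 precursor, stood at 79.1, 77.8 and 75.7 CPM in Control, 82.7, 86.1 and 87.5 in DNMT1 knockdown and 104, 98.3 and 99.1 in DNMT3B knockdown. The 3 groups were apart, with DNMT3B knockdown highest. Its log2 fold changes were 0.14 ± 0.038 (adjusted p = 0.0034) and 0.38 ± 0.038 (8.39e-10), and 198 of its 5633 exon bases are shared with CEP295NL on the same strand. TIMP1, the member highest per length, was at 106 ± 5.06 CPM in Control, 109.6 ± 4.87 in DNMT1 knockdown and 100.2 ± 3.91 in DNMT3B knockdown (0.06 ± 0.040, 0.281; -0.07 ± 0.041, 0.153); it was called lower in DNMT3B knockdown without Control library 1 (0.0455). TIMP3, which binds to matrix, was at 4.41 ± 0.404, 4.23 ± 0.338 and 5.18 ± 0.204 CPM (-0.06 ± 0.11, 0.673; 0.23 ± 0.11, 0.0823). TIMP4 was at 0.458 ± 0.273, 0.530 ± 0.104 and 0.616 ± 0.219 CPM (0.20 ± 0.36, 0.687; 0.40 ± 0.36, 0.367), and without Control library 3 it was called higher in DNMT3B knockdown (0.0381).

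TIMP2 and MMP14, which act as partners, moved in opposite directions in DNMT3B knockdown. The ratio of TIMP2 to MMP14 in CPM, computed after both values were seen, was 2.75, 2.66 and 2.29 in the Control libraries and 3.06, 2.85 and 3.26 in the DNMT1 knockdown libraries. In DNMT3B knockdown it was 5.63, 5.42 and 5.54, above all 6 others. This ratio compares libraries with each other and not the amounts of the 2 transcripts, since CPM is not corrected for length.

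Of 17 tested serpins, 1 rose and 3 fell in DNMT1 knockdown, beside 21% and 20.8% of all genes. In DNMT3B knockdown 3 rose and 5 fell, beside 23.1% and 24.6%. SERPINE2 (protease nexin 1), which inhibits thrombin and urokinase, had its larger rise in DNMT1 knockdown, with 56.5, 54.9 and 54.6 CPM in Control, 78.4, 81 and 77.2 in DNMT1 knockdown and 60.1, 60.2 and 59 in DNMT3B knockdown (0.51 ± 0.038, 1.6e-12; 0.11 ± 0.040, 0.0218). The smaller rise was lost without the low-count filter and without Control library 3 or DNMT3B knockdown library 1 (adjusted p up to 0.0665). In the direct comparison SERPINE2 was higher in DNMT1 knockdown (0.40 ± 0.039, 5.11e-10).

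Of 5 tested clade B serpins, which mostly act inside cells, 0 rose and 2 fell in DNMT1 knockdown, beside 21% and 20.8% of all genes. In DNMT3B knockdown 0 rose and 3 fell, beside 23.1% and 24.6%. SERPINB8, an inhibitor of furin, fell in both, from 22.4, 21.9 and 22.4 CPM in Control to 15.3, 13.7 and 14.3 in DNMT1 knockdown and 16.9, 18.5 and 15.9 in DNMT3B knockdown (-0.63 ± 0.063, adjusted p = 1.2e-09; -0.39 ± 0.061, 4.39e-06). Both knockdowns lay below all Control libraries, and 370 of its 5868 exon bases are shared with HMSD on the same strand. SERPINB1, an inhibitor of neutrophil elastase, fell in both (-0.16 ± 0.048, 0.00607; -0.36 ± 0.049, 3.94e-07), and the call in DNMT1 knockdown was lost without library 2 of that group (0.0661). SERPINB6 fell in DNMT3B knockdown (-0.26 ± 0.042, 4.81e-06; -0.03 ± 0.041, 0.546 in DNMT1 knockdown). SERPINB9, the inhibitor of granzyme B, and SERPINB5 (maspin) were called in neither.

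Of the other serpins, SERPINI1 (neuroserpin) fell in DNMT1 knockdown from 3.97, 3.43 and 3.95 CPM to 2.31, 2.77 and 2.7, with 3.64, 3.88 and 3.49 in DNMT3B knockdown (-0.55 ± 0.13, adjusted p = 0.000748; -0.06 ± 0.12, 0.716). SERPINF1 (pigment epithelium-derived factor) fell in DNMT3B knockdown (-0.40 ± 0.11, 0.00365; -0.09 ± 0.10, 0.547 in DNMT1 knockdown). SERPINA1 (alpha-1 antitrypsin) and SERPINA10, 2 genes of the chromosome 14 cluster, were called in DNMT3B knockdown in opposite directions, at 0.48 ± 0.18 (0.024) and -0.77 ± 0.24 (0.00923), from means of 1.35 ± 0.0650 and 1.14 ± 0.0192 CPM in Control. Both calls were lost with DESeq2 and without DNMT3B knockdown library 3, and that of SERPINA1 also without Control library 1 (adjusted p up to 0.109 and 0.062). SERPINH1, the collagen chaperone, had 149, 147 and 154 CPM in Control, 156, 159 and 151 in DNMT1 knockdown and 148, 154 and 155 in DNMT3B knockdown, overlapping throughout, and was called in neither (0.05 ± 0.034, 0.296; 0.02 ± 0.035, 0.65).

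Set against each other directly, the knockdowns differed most in MMP20, MMP7, ADAM19, KLK5, KLK11 and ADAMTS14, the only 6 members with a called difference of at least 2-fold (8% of members, where 1.84% of all genes had one). MMP20 passed the low-count filter only through DNMT3B knockdown, where it was high. MMP7 did not pass in Control alone, and nothing is read from this share. The 2 MMPs were lower in DNMT1 knockdown and the other 4 higher. By family, 6 of 12 tested kallikreins, 7 of 13 ADAMs, 4 of 10 ADAMTSs, 5 of 13 MMPs and 6 of 17 serpins were higher in DNMT1 knockdown. In the same order 1, 1, 0, 2 and 3 were lower. Of all genes, 24.3% were higher and 20.9% lower, and no family was tested against these shares. The TMPRSS and TIMP families, with 6 and 4 tested genes, had more genes lower than higher in DNMT1 knockdown, 3 against 1 and 2 against 1. TIMP1 was the TIMP that was higher (0.13 ± 0.041, 0.0126) and TIMP2 and TIMP3 were lower (-0.24 ± 0.038, 5.77e-06; -0.29 ± 0.11, 0.0365). The calls of TIMP1 and TIMP3 were lost without 1 of several libraries: TIMP1 without DNMT1 knockdown library 3 or DNMT3B knockdown library 2 (up to 0.124), and TIMP3 without library 2 or 3 of either knockdown (up to 0.118), which DESeq2 also did not call. The calls of SERPINA10 and SERPINF1 (0.74 ± 0.26, 0.018; 0.31 ± 0.12, 0.0307) were likewise lost with DESeq2 and without DNMT1 knockdown library 1 or DNMT3B knockdown library 3, that of SERPINA10 also without DNMT1 knockdown library 3, and that of SERPINF1 also without DNMT1 knockdown library 2 or DNMT3B knockdown library 1 (up to 0.0987 and 0.134).

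Genes that work with these proteases were read from 5 lists. The counts of each list stand beside 21% of all genes that rose and 20.8% that fell in DNMT1 knockdown. For DNMT3B knockdown these shares were 23.1% and 24.6%, and no list was tested against them. Of 10 genes of plasminogen activation, 9 were tested; 3 rose and 3 fell in DNMT1 knockdown, and 4 rose and 3 fell in DNMT3B knockdown. The plasminogen receptor subunits ANXA2 and S100A10 rose in both (0.60 ± 0.032 and 0.31 ± 0.032; 0.45 ± 0.038 and 0.40 ± 0.038), as did LRP1, which clears protease and serpin complexes (0.54 ± 0.051 and 0.39 ± 0.052). PLAU (urokinase), an activator of plasminogen, fell from 55.3 ± 3.42 CPM to 43.1 ± 1.25 and 48.5 ± 2.09 (SD, n = 3; -0.36 ± 0.047, adjusted p = 2.13e-07; -0.19 ± 0.047, 0.000932). The exons of PLAU share 916 of their 2950 bases with C10orf55 on the opposite strand, so its value is uncertain. Of 23 other serine proteases of epithelial surfaces, Kunitz inhibitors and protease-activated receptors, 16 were tested, and 4 rose and 3 fell in each knockdown. F3 (tissue factor) rose from 16.6 ± 0.309 CPM to 35.1 ± 0.450 and 40.6 ± 3.1 (1.08 ± 0.057 and 1.29 ± 0.056), the thrombin receptor F2R rose (0.81 ± 0.046 and 0.46 ± 0.048), the Kunitz inhibitor SPINT2 fell (-0.31 ± 0.047 and -0.52 ± 0.047), and the transmembrane protease CORIN rose in DNMT3B knockdown (0.01 ± 0.092, not called, and 0.53 ± 0.086).

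Of 24 other protease inhibitors, 16 were tested; 6 rose and 2 fell in DNMT1 knockdown, and 4 rose and 1 fell in DNMT3B knockdown. CSTA (cystatin A) fell in DNMT1 knockdown (-1.16 ± 0.11; -0.21 ± 0.097 in DNMT3B knockdown, not called) and CSTB (cystatin B) rose in both (0.30 ± 0.048 and 0.17 ± 0.048). SLPI, the secretory leukocyte peptidase inhibitor, rose in DNMT3B knockdown from 0.447, 0.559 and 0.578 CPM to 1.68, 2.1 and 1.65, with 0.743, 0.810 and 0.748 in DNMT1 knockdown (1.75 ± 0.22, adjusted p = 6.3e-08; 0.54 ± 0.27, 0.11). SPOCK3, a testican, rose in DNMT1 knockdown and fell in DNMT3B knockdown (0.50 ± 0.11 and -0.93 ± 0.15). Of 23 astacin-type and related metalloproteases and ADAMTS-like genes, 14 were tested; 3 rose and 3 fell in DNMT1 knockdown, and 5 rose and 2 fell in DNMT3B knockdown. BMP1, which removes the carboxy-terminal propeptide of procollagens and so complements ADAMTS14, rose in both (0.50 ± 0.043 and 0.41 ± 0.044). The carboxypeptidase CPE fell in both (-0.23 ± 0.043 and -0.16 ± 0.043), CPM, the gene of carboxypeptidase M, rose in DNMT3B knockdown (0.50 ± 0.097), and PAPPA2, a protease of IGF-binding proteins, fell in DNMT1 knockdown (-1.39 ± 0.31), the values for the other knockdown being uncalled at -0.02 ± 0.10 and 0.09 ± 0.25.

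The last list held partners of ADAM10 and ADAM17 and zymogen activators, with 18 tested genes. In DNMT1 knockdown 8 rose and 3 fell (21% and 20.8% of all genes), and in DNMT3B knockdown 0 rose and 9 fell (23.1% and 24.6%). In the direct comparison 12 were higher and 3 lower in DNMT1 than in DNMT3B knockdown (24.3% and 20.9%). These counts were not tested as a list. TSPAN14, a tetraspanin that guides ADAM10 to the cell surface, rose in DNMT1 knockdown, with 182, 174 and 177 CPM in Control, 239.8, 245 and 240.2 in DNMT1 knockdown and 173, 169 and 169 in DNMT3B knockdown (0.44 ± 0.032, adjusted p = 9.64e-13; -0.06 ± 0.033, 0.13). CTSB (cathepsin B) rose in DNMT1 knockdown and fell in DNMT3B knockdown (0.26 ± 0.033 and -0.13 ± 0.034), with 0.39 ± 0.034 between them (adjusted p = 2.78e-11). CTSL (cathepsin L) fell in both (-0.79 ± 0.056 and -0.47 ± 0.054), and so did PCSK6, a proprotein convertase (-0.12 ± 0.048, adjusted p = 0.0407; -0.44 ± 0.051, 1.46e-08).

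Upstream windows were matched for 85 members, and their CpG numbers were counted. The median of the largest CpG number per gene was 12.5 for 54 tested members and 3 for 31 untested ones. In DNMT1 knockdown it was 17 for 18 genes that rose, 19 for 5 that fell and 11 for 31 that were not called. In DNMT3B knockdown it was 19 for 9 that rose, 21 for 13 that fell and 10 for 32 that were not called. Genes that rose in DNMT1 knockdown spanned a wide range, from 2 (TMPRSS7) to 36 CpG (ADAM15). These medians are a description over genes of unequal expression, and the part of expression level in them was not tested. The kallikreins with opposite calls, KLK5 and KLK6, had 6 and 12 CpG in their windows.

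**Figure D5:**
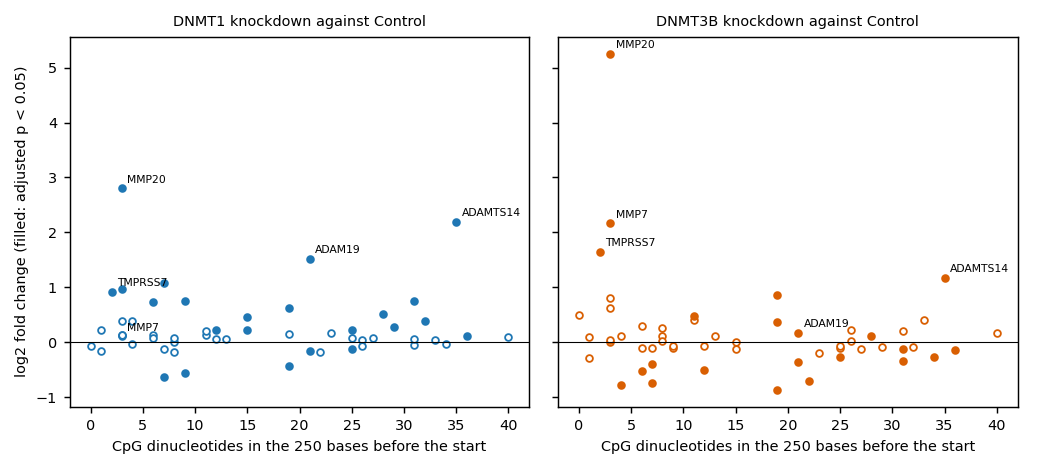
Log2 fold change (vertical axis) against the number of CpG dinucleotides in the 250 bases before the start (horizontal axis, the largest number where a gene has several starts) for 54 tested members, 1 panel per knockdown, filled where adjusted p was below 0.05. In DNMT1 knockdown the filled points above 0 span 2 to 36 CpG and those below 0 span 7 to 25. In DNMT3B knockdown the filled points above 0 span 2 to 35 CpG and those below 0 span 4 to 36.

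The untested members were largely silent. Of the 55, 11 had no count in any library and 37, these included, had 10 counts or fewer over all 9 libraries. The highest of the untested had 66 counts over all libraries. Untested genes with at least 40 counts and 1 to 20 of them in Control, besides MMP16, were ADAM28 with 13, 26 and 20 counts in Control, DNMT1 and DNMT3B knockdown, ADAMTS8 with 11, 16 and 17, and ADAMTS9 with 15, 27 and 24. Their ratios to Control lay between 1.86 and 2.55, and the 95% counting intervals of ADAM28 in DNMT1 knockdown (1.26 to 5.41) and of ADAMTS9 in both (1.18 to 4.64 and 1.07 to 4.34) excluded 1. SERPINA3 had 22, 8 and 10 counts. No test stands behind these counts, since intervals of counting error leave out the spread between libraries. Picking genes with few of their counts in Control also favours ratios above 1, so nothing is read from these intervals.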

How the data were processed

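Raw, unscaled read counts for 9 libraries were deposited by the authors in a single table of gene symbols. The submitters' processing notes list STAR, featureCounts, DESeq2 and the build GRCh38 (hg38), and neither versions, annotation nor strand setting are given in the sources. Per the labels' protocols, rRNA was depleted before library preparation.

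The counts were fitted in R 4.3.3 with edgeR 4.0.16 (filterByExpr by group with a minimum of 10 counts, TMM, quasi-likelihood test over all 9 libraries, residual degrees of freedom 6, prior 25.4, biological coefficient of variation 2.96%). Benjamini-Hochberg adjustment covered all 16660 tested genes, and a gene was called at an adjusted p below 0.05. Every adjusted p not credited to another tool is from this fit; ± is the SD of CPM over 3 libraries, or the standard error after a log2 fold change. Replicate libraries differed beyond counting noise. Exon lengths and shared exon bases are from GENCODE v29 (GRCh38), and upstream windows from RefSeq (GRCh38.p14), with 85 of 130 members matched.

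The members and lists were chosen with earlier results of these data known. Members named were the up to 10 called per direction and comparison with the largest change among those with a mean of at least 1 CPM, those called in opposite directions, the 12 highest in Control, the TIMPs, the 3 largest calls under 1 CPM, and up to 4 genes per related list; others named to complete a family were chosen after their values were seen. The values of 1 member are not reported here, though it stays in the fit and the counts. Alternatives were DESeq2 1.42.0, limma-voom (limma 3.58.1), DESeq2 size factors, no TMM, a filter of 1 CPM in 3 libraries or none, fits of the compared groups alone, a replicate block, and leaving out each library. The fitting code was tested on simulated data.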

Additional observations from a re-analysis of the deposited data

Results flagged for a closer look

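Control lay between the knockdowns for 3 members that were called in opposite directions, and the difference between the knockdowns was itself called by edgeR. The share of all genes with opposite calls is not given here, so nothing is read from the number of such members. KLK6, a trypsin-like kallikrein, was 0.72 higher in DNMT1 than in DNMT3B knockdown on the log2 scale (adjusted p = 2.66e-15), with no overlap between any 2 groups. KLK5, its neighbour, differed by 1.27 (adjusted p = 1.75e-06). The sheddase ADAM15 differed by 0.26 (adjusted p = 6.06e-07), with shifts of at most 1.1-fold from Control on either side. The rise of ADAM15 in DNMT1 knockdown and the fall of KLK5 in DNMT3B knockdown were each lost when single libraries were left out, as given with their values. What these differences come from was not tested.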

How the results depend on the processing

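Of 89 called results for named members, 72 were called under all 17 alternatives that could be run for them, 17 were lost under at least 1, and 0 changed direction; of 37 that were not called, 7 were called under at least 1. The members called higher in DNMT1 knockdown numbered 24, with 20 to 25 when 1 library was left out and 19 to 26 under the other settings; those called lower numbered 8 (6 to 8 and 6 to 8). In DNMT3B knockdown 14 were higher (13 to 15 and 13 to 15) and 17 lower (14 to 19 and 14 to 18). In the direct comparison 30 were higher in DNMT1 knockdown (27 to 31 and 26 to 32) and 12 lower (11 to 13 and 11 to 12). The log2 fold change of DNMT1 in its knockdown ranged from -0.88 to -0.85 and that of DNMT3B from -1.05 to -0.95. Libraries with the same number did not deviate together (correlations of -0.119 to 0.119), and with the replicate number as a block the counts were 24, 8, 14, 17, 28 and 12 in the same order. Genes under about 0.4 CPM could not be tested at this depth, and those missing from the stricter filter gave no value under it.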
